A study of Rattus norvegicus with 24 samples.

Results

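Glutamate and GABA are the main excitatory and inhibitory transmitters of the brain, and this account follows the genes for the subunits of their receptors through 6 tissues of the ageing rat. The members were the probe sets of the array whose only gene symbol begins with Gria, Grik, Grin1, Grin2, Grin3, Grm, Gabra, Gabrb, Gabrg, Gabrd, Gabre, Gabrr or Gabbr. The rule found 56 probe sets for 38 genes, of 10411 genes with a symbol of their own on the array. Of these genes, 23 encode glutamate receptors (4 AMPA, 5 kainate, 7 NMDA and 7 metabotropic subunits) and 15 encode GABA receptors (10 GABA-A subunits, 3 rho subunits and 2 GABA-B subunits).

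RNA came from untreated male Sprague-Dawley rats aged 4, 10, 18 or 24 months. At each age, RNA of the same 10 rats was pooled for each of 6 tissues: the hypothalamus and the pituitary gland, spleen lymphocyte, and the liver, kidney and bone. Each pool was measured on 1 array, which gave 24 arrays. The adrenal gland was not analysed here. With 1 array per tissue and age, the 4 ages of a tissue served as its samples in the tests between tissues, so the error terms hold the spread between ages and arrays and do not measure the spread between rats. Values are the authors' signals, a linear intensity scaled to a trimmed mean of 500 on every array. A signal of 100 was used as a working floor, which some marker genes of other tissues also passed, as given below. Differences are on the scale log2(signal + 50), which understates the change of weak probe sets. Tests used limma over 15866 probe sets, with Benjamini-Hochberg adjusted p-values under 0.05 called.

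AMPA, kainate and NMDA receptors are tetrameric cation channels opened by glutamate, and metabotropic glutamate receptors act through G proteins. GABA-A receptors are pentameric chloride channels, with rho subunits forming a variant best known from the retina, and the GABA-B receptor is a G protein coupled heterodimer. In the hypothalamus, both transmitters set the activity of the neurons that control pituitary hormone release, feeding and body temperature.

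The labels of the tissues fitted their markers. The summed signal of 11 neuron marker genes ran from 33885 to 41663 in hypothalamus, from 12411 to 14047 in pituitary and from 970 to 1864 in the other 4 tissues. Pituitary hormone, lymphocyte, hepatocyte, kidney tubule and bone cell markers each peaked in the tissue they name. A pair of arrays stood apart. The 10-month hypothalamus array had a summed hepatocyte marker signal of 12721, against 1189 to 2568 at the other ages of that tissue, and a log2 ratio of 3' to 5' beta-actin probe signal of 3.09, against 1.10 to 1.89. On the 18-month bone array the weakest signals were raised, where the 5th percentile was 33.5 while the remaining arrays had 9.13 to 15.7, and the members lay 0.40 above their bone mean at the median, against 0.11 for all probe sets (log2). The part of these features in the results below was not tested, and values without these arrays are given where a result rests on them. The 18-month kidney array had the lowest share of probe sets at 100 or more, 67.8%. Its members lay at -0.22 from their kidney mean at the median, against -0.06 for all probe sets (log2). A further run left it out together with the 10-month hypothalamus array.

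The receptor subunits most often read 100 or more on all arrays of a tissue in hypothalamus, and least often in kidney and bone. By the probe set kept for each gene (the one at 100 or more on most arrays), 25 of 38 genes read 100 or more on all 4 hypothalamus arrays. The count was 19 in pituitary, 13 in spleen lymphocyte, 13 in liver, 9 in kidney and 9 in bone. By all 56 member probe sets, the counts in the same order of tissues, from hypothalamus to bone, were 30, 21, 14, 16, 10 and 10. The share over all probe sets was taken only for single arrays, where 67.8% to 77.0% read 100 or more. In liver, 4 to 5 of 9 pituitary endocrine markers and 4 to 6 of 11 neuron markers also read 100 or more. A signal over 100 thus does not by itself show that a tissue expresses a subunit. A group of 7 probe sets reached 100 on all 24 arrays. They measured Gabbr1 (2 probe sets), Gabbr2, Gabrd, Gabrg1, Grin2c and Grm8. The probe sets of Gabra3 and Grm5 and 1 of Gabbr2 stayed below 100 on every array. In bulk tissue, fewer cells of a type and less RNA per cell cannot be told apart.

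**Figure D1:**
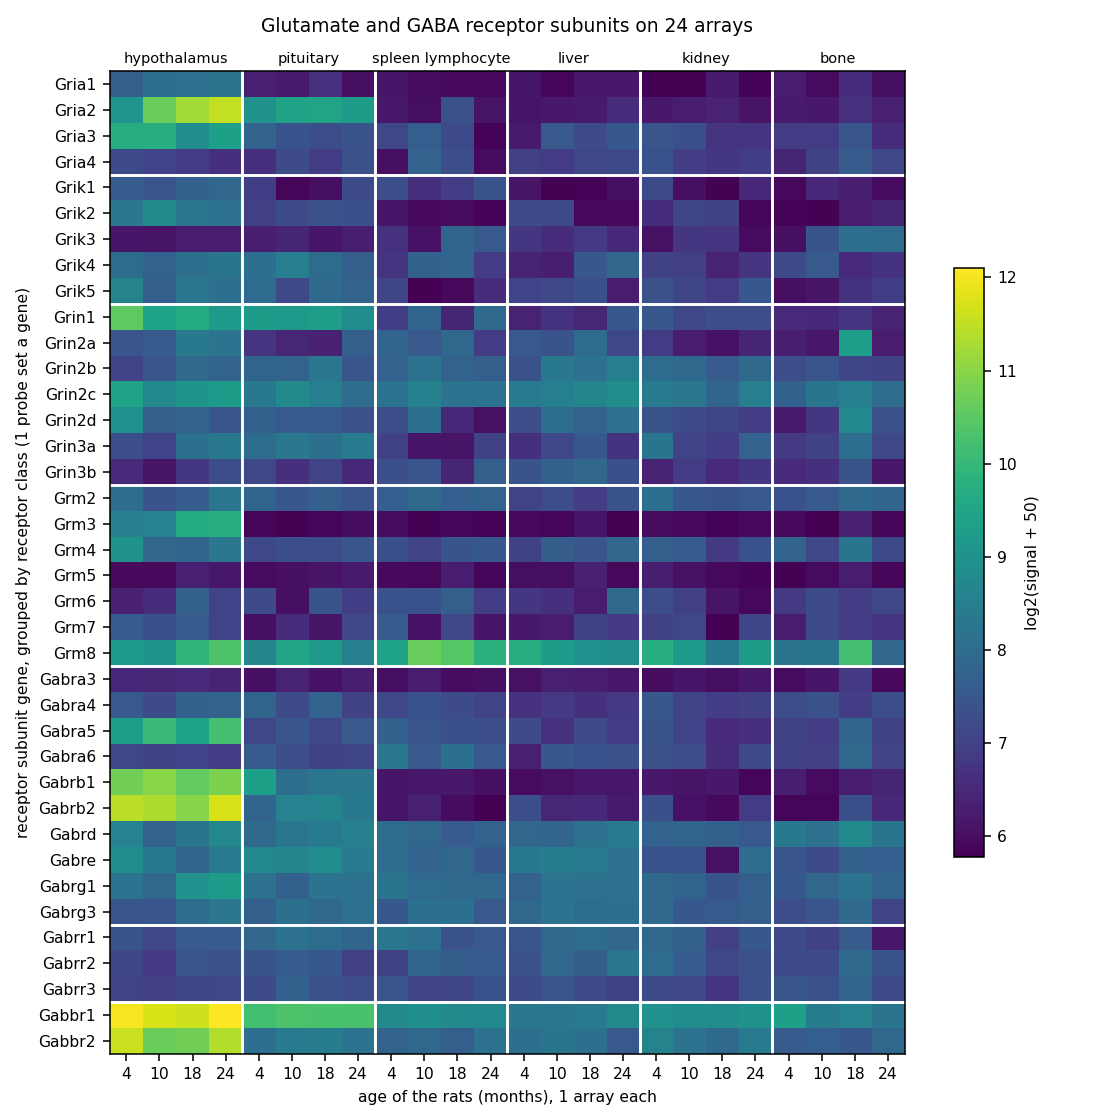
Colour gives log2(signal + 50) of the probe set kept for each of the 38 receptor genes (rows, grouped by receptor class with white lines) on the 24 arrays (columns, 4 ages in each of 6 tissues). Bright cells gather in the hypothalamus columns for Gabbr1, Gabbr2, Gabrb1, Gabrb2, Gabra5 and Gria2, fewer in pituitary, and Grm8 is bright in several tissues.

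The hypothalamus was compared with the mean of the other 5 tissues. Of the 56 member probe sets, 27 were higher in hypothalamus and 2 were lower, while 22.4% of all probe sets tested were higher and 25.9% were lower. The median difference was 0.44 over the members and -0.11 over all probe sets. Counted by 1 probe set a gene, 20 of 38 genes were higher and 0 were lower. On 13 member probe sets, all 4 hypothalamus arrays lay above all 20 others. This was not counted over all probe sets, so it has no background share to be set against.

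Among AMPA receptor subunits, 3 of 4 genes were higher in hypothalamus. Gria2 encodes the subunit that makes AMPA channels nearly impermeable to calcium. One of its probe sets (1387171_at) read 1176, 1461, 992 and 1592 in hypothalamus at 4, 10, 18 and 24 months, against 3.95 to 163 on the other 20 arrays. These groups did not overlap, and the difference was 4.21 ± 0.16 (SE, 4 against 20 arrays, limma adjusted p = 1.0e-14). The other probe set (1368401_at) read 489, 1555, 2357 and 2906 and overlapped with pituitary, whose signals were 471, 636, 663 and 551, with a difference of 3.71 ± 0.24 (SE, adjusted p = 5.31e-11). Gria1, another pore-forming AMPA subunit, read 158, 219, 234 and 243 against at most 51.4 elsewhere, a difference of 1.94 ± 0.12 (SE, adjusted p = 2.75e-11).

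Gria3 read 793, 802, 413 and 603 in hypothalamus and 6.80 to 169 elsewhere, again with no overlap (2.31 ± 0.25, SE, adjusted p = 1.03e-07). Its second probe set (1368691_at), below 100 on 22 arrays, was called higher by 0.57 (adjusted p = 0.0313), a call lost without the 18-month or the 24-month hypothalamus array. Gria4, the remaining AMPA subunit, reached only 47.8 to 96.2 in hypothalamus, within the range of 11.5 to 166 of the other tissues, and its difference was -0.04 (adjusted p = 0.902).

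Kainate receptor subunits were higher in 4 of 5 genes, at lower signals. Grik2, a subunit that can form channels by itself, read 262, 390.4, 256 and 233 in hypothalamus and at most 111 on any other array. The difference was 1.88 ± 0.22 (SE, adjusted p = 2.95e-07). Grik1 read 146, 124, 159 and 181, all above the highest other value of 118 (difference 1.25, adjusted p = 1.69e-05). The subunits Grik4 and Grik5, which need a partner such as Grik2 to form a channel, differed by 0.80 and 1.23 (adjusted p = 0.0133 and 5.52e-05), and their hypothalamus values overlapped with pituitary. The Grik4 call was lost without the 4-month or the 24-month hypothalamus array. Grik3 was not detected in hypothalamus, at 19.0 to 27.1, and its highest signals were in bone.

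NMDA receptors need the subunit encoded by Grin1, which binds the co-agonist glycine. Grin1 read 1439, 651, 759 and 532 in hypothalamus and 558, 531, 575 and 415 in pituitary, so that the 24-month hypothalamus lay within the pituitary range. The other 16 arrays read 33.3 to 193, and the hypothalamus difference was 2.31 ± 0.24 (SE, adjusted p = 6.89e-08). A second Grin1 probe set (1389900_at) was also higher, by 1.15 (adjusted p = 3.12e-05).

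Of the glutamate-binding NMDA subunits, Grin2c alone passed the test, at 630.5, 372, 479.5 and 544 in hypothalamus and 163 to 424 elsewhere (0.77 ± 0.16, SE, adjusted p = 0.000494). Its signals were above 100 on all 24 arrays, and the 10-month hypothalamus value lay inside the range of the other tissues. Grin2a differed by 0.84 with an SE of 0.36 and did not pass (adjusted p = 0.0597). Grin2b read 83.3, 126, 200 and 169 in hypothalamus and up to 312 in liver, with a difference of -0.20 (adjusted p = 0.368). The probe sets of Grin2d disagreed. The one with signals over 100 differed by 0.62 (adjusted p = 0.143), and the weak one (1368950_a_at), below 100 on 23 arrays, was lower by -0.55 (adjusted p = 0.0478), a call lost when any 1 hypothalamus array was left out.

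Metabotropic glutamate receptors split between 1 gene with a large difference and 6 with small ones. Grm3, a group II receptor that lowers cyclic AMP and is found on neurons and astrocytes, read 321, 329.9, 751 and 811 in hypothalamus. On the other 20 arrays it read 4.42 to 30.4, below the floor in every tissue, so the groups lay far apart. Its difference was 3.22 ± 0.16 (SE, adjusted p = 6.05e-13). The group III receptors Grm4 and Grm7, which act mostly on nerve terminals, were higher by 0.83 and 0.72 (adjusted p = 0.0023 and 0.0394), and both overlapped with other tissues. Leaving out the 4-, 10- or 18-month hypothalamus array ended the Grm7 call.

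Grm8, also of group III, was at 184 or more in all 6 tissues by its main probe set, and its hypothalamus difference of 0.42 was not called (adjusted p = 0.306). A second probe set (1369391_at) with signals of 33.6 to 206 was called higher by 0.71 (adjusted p = 0.00609). Grm2 differed by 0.25 (adjusted p = 0.18). Grm5 was below 100 on all 24 arrays. Grm6, known as the glutamate receptor of retinal ON bipolar cells, gave 3 weak probe sets, of which 1 (1371236_at) was lower in hypothalamus (-0.58, adjusted p = 0.0389). That call was lost without the 10-month or without the 18-month hypothalamus array.

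Among GABA-A receptor subunits, 6 of 10 genes were higher in hypothalamus, and the beta subunits had the highest differences of all 38 genes by the probe set kept for each gene. Beta subunits form the GABA binding site together with alpha subunits. Gabrb2 read 2765, 2529, 1949 and 3354 in hypothalamus, 178 to 346 in pituitary and 4.60 to 109 in the other 4 tissues. All 4 hypothalamus arrays lay above all others, with a difference of 4.58 ± 0.26 (SE, adjusted p = 6.81e-12). A second Gabrb2 probe set (1369818_at), at 16.5 to 119.5 in hypothalamus, did not differ by the test (-0.12, adjusted p = 0.69).

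Gabrb1 read 1643, 1981, 1479 and 1818 in hypothalamus, 598, 218, 255 and 264 in pituitary and 8.55 to 35.2 elsewhere. The 3 ranges did not meet, and the hypothalamus difference was 4.18 ± 0.16 (SE, adjusted p = 9.32e-15). Gabra5, an alpha subunit of extrasynaptic receptors, read 587, 999.9, 649.8 and 1151 against at most 178 elsewhere (2.58 ± 0.19, SE, adjusted p = 5.52e-10). Gabrg1, Gabra4 and Gabra3 were called with small differences of 0.64, 0.43 and 0.32 (adjusted p = 0.00485, 0.0184 and 0.0411), though Gabra3 was below 100 on every array. The Gabrg1 call was lost without the 24-month hypothalamus array. The Gabra4 call was lost without the 18-month or the 24-month array, and that of Gabra3 without any 1 of the 4.

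Gabrd, Gabre, Gabrg3 and Gabra6 were not called, with differences of 0.27, 0.45, 0.01 and -0.29 (adjusted p = 0.154 to 0.967). The rho genes Gabrr1, Gabrr2 and Gabrr3 differed by -0.19, -0.36 and -0.23, with none of the 3 called. Signals of the rho probe sets kept ran from 62.7 to 143 in hypothalamus and from 22.5 to 257 elsewhere.

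Both GABA-B genes were higher. Gabbr2, the subunit that couples to the G protein, read 3026, 1586, 1641 and 2627 in hypothalamus and 128 to 337 on the other arrays (3.08 ± 0.16, SE, adjusted p = 1.76e-12). Gabbr1, the subunit that binds GABA, read 4104, 3382, 3152 and 4359 in hypothalamus, 1120.0 to 1242 in pituitary and 248 to 603 in the remaining tissues (2.86 ± 0.15, SE, adjusted p = 1.32e-12). Of the 5 Gabbr1 probe sets, 4 were higher, by 1.5 to 3.13. The 5th (1369372_at) differed by -0.28 (adjusted p = 0.295), and its highest signals, 113 to 184, came from spleen lymphocyte.

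**Figure D2:**
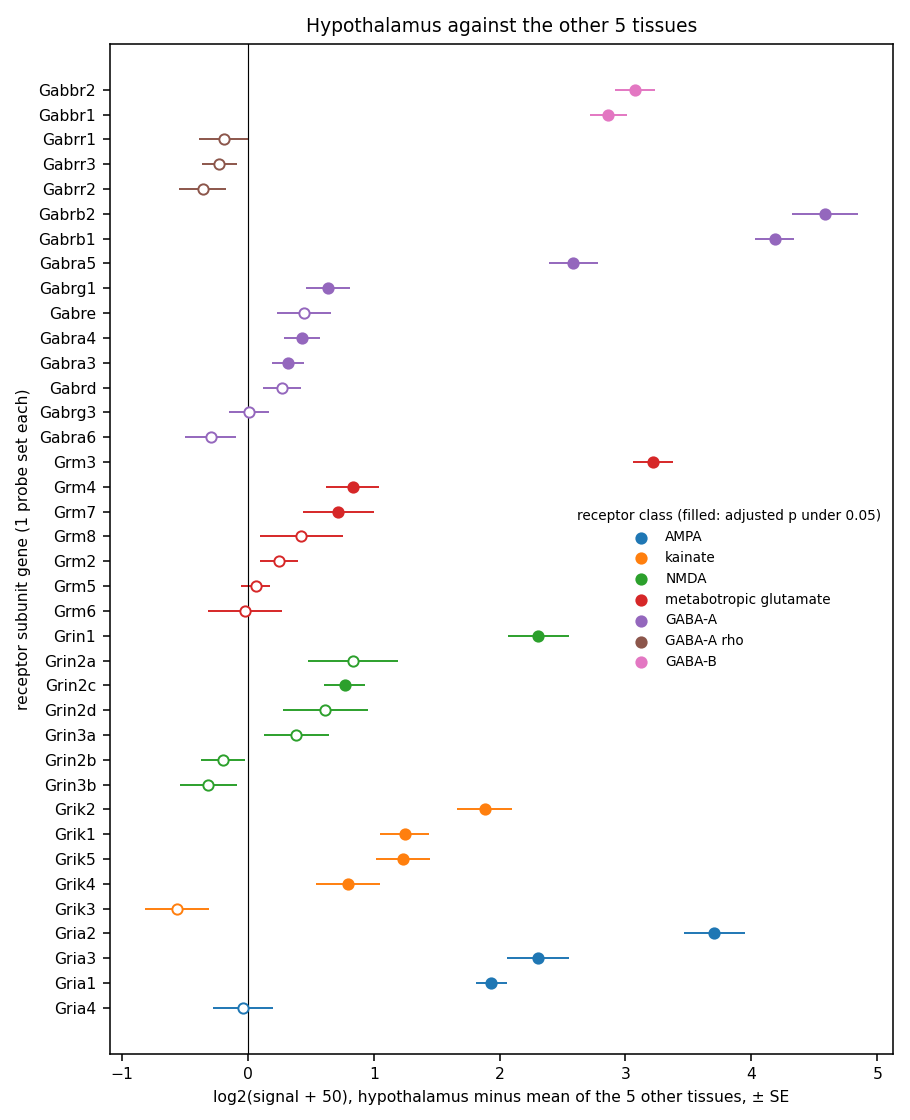
Each point is the difference in log2(signal + 50) between hypothalamus and the mean of the other 5 tissues for 1 probe set a gene, with bars of ± 1 SE, filled where the limma adjusted p was under 0.05. Gabrb2 (4.58), Gabrb1 (4.18) and Gria2 (3.71) lie farthest to the right, and the rho subunits lie slightly left of 0.

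The signals of neighbouring GABA-A genes differed. In the RefSeq gene table, 3 pairs of GABA-A subunit genes lie next to each other among protein-coding genes: Gabra6 and Gabrb2 on chromosome 10, Gabrb1 and Gabra4 on chromosome 14, and Gabrg3 and Gabra5 on chromosome 1. In each pair 1 gene was among those with a large hypothalamus difference (4.58, 4.18 and 2.58) and its neighbour was not (-0.29, 0.43 and 0.01). The rho genes Gabrr1 and Gabrr2 on chromosome 5 also lie next to each other, and neither was called. The promoters of the first 3 pairs are printed to show how the neighbours differ in sequence. They are the RefSeq windows of build GRCr8 from 250 bases before to 50 bases after the start, and capitals mark the GC box (GGGCGG or CCGCCC) and, in Gabrb1 and Gabrb2, the stretches that both promoters share.
Gabrb2 (beta2, chr10:27439543-27439842, plus strand): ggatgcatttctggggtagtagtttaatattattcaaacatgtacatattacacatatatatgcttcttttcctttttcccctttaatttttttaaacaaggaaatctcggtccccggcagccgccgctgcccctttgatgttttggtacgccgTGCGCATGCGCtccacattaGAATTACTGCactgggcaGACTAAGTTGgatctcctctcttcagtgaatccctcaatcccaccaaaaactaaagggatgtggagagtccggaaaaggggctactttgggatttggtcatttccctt
Gabra6 (alpha6, chr10:27327185-27327484, minus strand): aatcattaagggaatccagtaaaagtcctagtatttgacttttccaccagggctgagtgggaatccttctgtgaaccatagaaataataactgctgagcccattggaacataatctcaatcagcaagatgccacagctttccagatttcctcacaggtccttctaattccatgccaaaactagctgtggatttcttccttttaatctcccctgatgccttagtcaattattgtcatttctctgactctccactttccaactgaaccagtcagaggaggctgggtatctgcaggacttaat
Gabrb1 (beta1, chr14:36902844-36903143, minus strand): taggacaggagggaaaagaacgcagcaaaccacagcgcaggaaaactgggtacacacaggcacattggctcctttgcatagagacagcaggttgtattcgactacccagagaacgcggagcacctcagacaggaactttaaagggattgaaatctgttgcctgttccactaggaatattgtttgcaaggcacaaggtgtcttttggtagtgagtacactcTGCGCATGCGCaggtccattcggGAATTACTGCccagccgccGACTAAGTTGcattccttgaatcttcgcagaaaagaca
Gabra4 (alpha4, chr14:36944497-36944796, plus strand): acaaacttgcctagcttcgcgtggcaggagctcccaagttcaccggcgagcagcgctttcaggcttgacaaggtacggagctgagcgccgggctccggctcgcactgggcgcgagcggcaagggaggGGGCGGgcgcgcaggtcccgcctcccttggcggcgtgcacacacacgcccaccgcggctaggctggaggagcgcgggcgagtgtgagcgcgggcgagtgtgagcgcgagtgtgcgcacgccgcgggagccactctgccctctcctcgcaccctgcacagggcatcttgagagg
Gabra5 (alpha5, chr1:117516557-117516856, minus strand): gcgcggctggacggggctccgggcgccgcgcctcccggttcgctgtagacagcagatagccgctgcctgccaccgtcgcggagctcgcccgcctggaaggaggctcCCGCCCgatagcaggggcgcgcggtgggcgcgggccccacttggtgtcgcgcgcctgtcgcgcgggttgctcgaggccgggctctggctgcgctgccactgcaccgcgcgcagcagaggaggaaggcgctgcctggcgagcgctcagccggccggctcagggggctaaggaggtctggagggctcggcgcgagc
Gabrg3 (gamma3, chr1:117382408-117382707, minus strand): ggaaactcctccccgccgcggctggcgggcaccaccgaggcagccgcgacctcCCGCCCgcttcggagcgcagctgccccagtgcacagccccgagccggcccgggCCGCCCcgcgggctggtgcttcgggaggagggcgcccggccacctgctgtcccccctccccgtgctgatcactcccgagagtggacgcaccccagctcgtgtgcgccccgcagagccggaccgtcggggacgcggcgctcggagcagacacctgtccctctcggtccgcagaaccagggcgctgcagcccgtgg
Of the 38 genes, 29 had a promoter in the RefSeq table. Those not matched were Gria1, Gria2, Gria3, Grin2a, Grin2b, Grin3b, Grm2, Grm3 and Grm4. The promoters of the beta genes shared 3 stretches of 10 letters or more, in the same order. The first, tgcgcatgcgc, began at position -30 in Gabrb1 and -96 in Gabrb2, with the start as 0, and holds the sequence known as the binding motif of the factor NRF1. The next, gaattactgc, began at -7 and -76, and the last, gactaagttg, at 12 and -58. On either strand, the 3 stretches were found in 200, 13 and 5 of all 33469 promoters. Among the 406 pairs that the 29 promoters form, 67 shared at least 1 stretch of this length on the same strand and 9 shared 3 or more. The stretches were picked after these sequences and the differences had been seen, so they are a description only.

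The GC box, GGGCGG on either strand, was found in 11 of 29 member promoters (37.9%) and 33.1% of all. Among the promoters printed, those of Gabra4, Gabra5 and Gabrg3 held it, and these had a GC content of 70.7%, 76.3% and 76.7%, against 42.3% to 49.3% in Gabra6, Gabrb2 and Gabrb1. Within the pairs, the gene with the larger hypothalamus difference had the higher GC content for Gabrb2 (44.0%) and Gabra6 (42.3%). It had the lower one for Gabrb1 and Gabra4, and for Gabra5 and Gabrg3, which were nearly equal. A relation of GC content to the difference was not tested. The TATA box letters TATAAA, searched on both strands, were found in 2 of 29 member promoters and 14.2% of all, and the cyclic AMP response element TGACGTCA in 0 of 29 and 1.83% of all. Of these 3 motifs, the printed promoters held only the GC box.

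Partner genes of these receptors, from lists of 71 genes of which 59 were measured, were called higher in hypothalamus in 29 cases and lower in 4, against 22.4% higher and 25.9% lower of all probe sets. For transmitter supply, 6 of 9 genes of glutamate synthesis and transport and 2 of 7 genes of GABA synthesis, breakdown and transport were higher, and none of either list was lower. Slc17a6, which loads glutamate into vesicles, read 3763, 3872, 2859.9 and 7484 in hypothalamus and 25.8 to 709 elsewhere (4.35 ± 0.30, SE, adjusted p = 1.80e-10). Slc32a1, the vesicular carrier of GABA and glycine, read 2064, 1192, 1141 and 1086 against 26.8 to 185 elsewhere (3.43 ± 0.20, SE, adjusted p = 9.31e-12). Both carriers were separated from all other arrays.

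Of 26 scaffold and auxiliary genes of glutamate receptors, 13 were higher and 1 was lower. Cnih2, an auxiliary subunit that slows AMPA receptor closing, differed by 2.91 ± 0.22 (SE, adjusted p = 7.57e-10), and Camk2b, a kinase of the postsynaptic density, by 2.88 ± 0.16 (SE, adjusted p = 3.22e-12). Of 9 genes for GABA receptor scaffolds and trafficking, 5 were higher and 2 were lower. Of 4 glycine receptor genes 2 were higher and 1 was lower, with Glra2 at 408 to 457 in hypothalamus and at most 45.7 elsewhere (2.92, adjusted p = 4.89e-14). Of 4 genes with related names outside the member rule (Grid1, Grina, Gabrp and Gabrq), 1 was higher, Grina (1.06, adjusted p = 0.000363).

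The pituitary, the gland driven by the hypothalamus, was compared with spleen lymphocyte, liver, kidney and bone. There, 14 member probe sets were higher and 0 were lower, against 27.3% higher and 18.9% lower of all probe sets, so the share of members called higher (25.0%) was close to the background. The members' median difference was 0.09 and that of all probe sets 0.05. The split depended on the scaling of the arrays. Centred on each array's median, 11 members were higher and 3 lower, and the share of higher calls among all calls moved from 59.1% to 41.1%, with the median of all probe sets moving from 0.05 to -0.13. With quantile normalization 11 were higher and 2 lower.

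By 1 probe set a gene, 11 of 38 genes were higher in pituitary. The largest differences were those of Gria2 (2.97 ± 0.24, SE, adjusted p = 3.10e-09) and Gabrb1 (2.35 ± 0.16, SE, adjusted p = 1.37e-10). For Gria2 the pituitary arrays read 471 to 663 and the 16 others 14.2 to 113, and for Gabrb1 218 to 598 and 8.55 to 35.2, with no overlap in either. Grin1 (2.18), Gabrb2 (1.94) and Gabbr1 (1.58) followed, each with all 4 pituitary arrays above the 16 others and adjusted p of 2.59e-07, 3.53e-06 and 2.23e-08. The second probe sets of Grin1 (1389900_at, 10.0 to 26.6 in pituitary) and Gabrb2 (1369818_at, 18.9 to 127) were not called. Gabbr1 was also called by 1388039_a_at, a call lost with either rescaling, and not by its remaining probe sets. Gria2 was also called by 1387171_at, a call lost with signals floored at 100.

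Further members higher in pituitary were Grin3a, a glycine-binding NMDA subunit (1.12, adjusted p = 0.0012), the kainate subunits Grik4 (1.05), Grik5 (0.99) and Grik2 (0.90), and the GABA-A epsilon subunit Gabre (0.94). Grik2 read 75.1, 97.7, 111 and 109.9 in pituitary, and its call was lost with signals floored at 100 (0.07, adjusted p = 0.537). Grin3a read 207, 266, 224 and 288 in pituitary and 18.7 to 249 in the 4 non-neural tissues, so that its groups overlapped. Gabra4 was called at 0.39 (adjusted p = 0.0363), a call lost with either rescaling and without the 4-month or the 18-month pituitary array. None of the 7 metabotropic genes was called by the probe set kept. A weak Grm8 probe set (1371243_at, 0.44) was called, and lost with either rescaling and without the 4-, 10- or 24-month pituitary array.

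Against the pituitary directly, 18 member probe sets were higher in hypothalamus and 0 were lower, compared with 12.9% higher and 18.2% lower of all probe sets. Centring on the median gave 23 higher and 0 lower members, and moved the share of higher calls among all calls from 41.5% to 53.5% and the median of all probe sets from -0.11 to 0.00. The largest differences were 3.26 ± 0.20 for Grm3 (SE, adjusted p = 1.38e-10), 3.19 ± 0.20 for Gria2 by probe set 1387171_at (adjusted p = 2.04e-10) and 3.03 ± 0.34 for Gabrb2 (adjusted p = 5.96e-07). By its other probe set, Gria2 differed by 1.33 ± 0.31 (SE, adjusted p = 0.0023). Gabbr2 (2.82) and Gabra5 (2.44) were higher as well, while Grin1 by the probe set kept was not among the calls. Its second probe set (1389900_at) was called higher, and that call was lost with signals floored at 100. These comparisons share arrays and are not independent of each other.

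**Figure D3:**
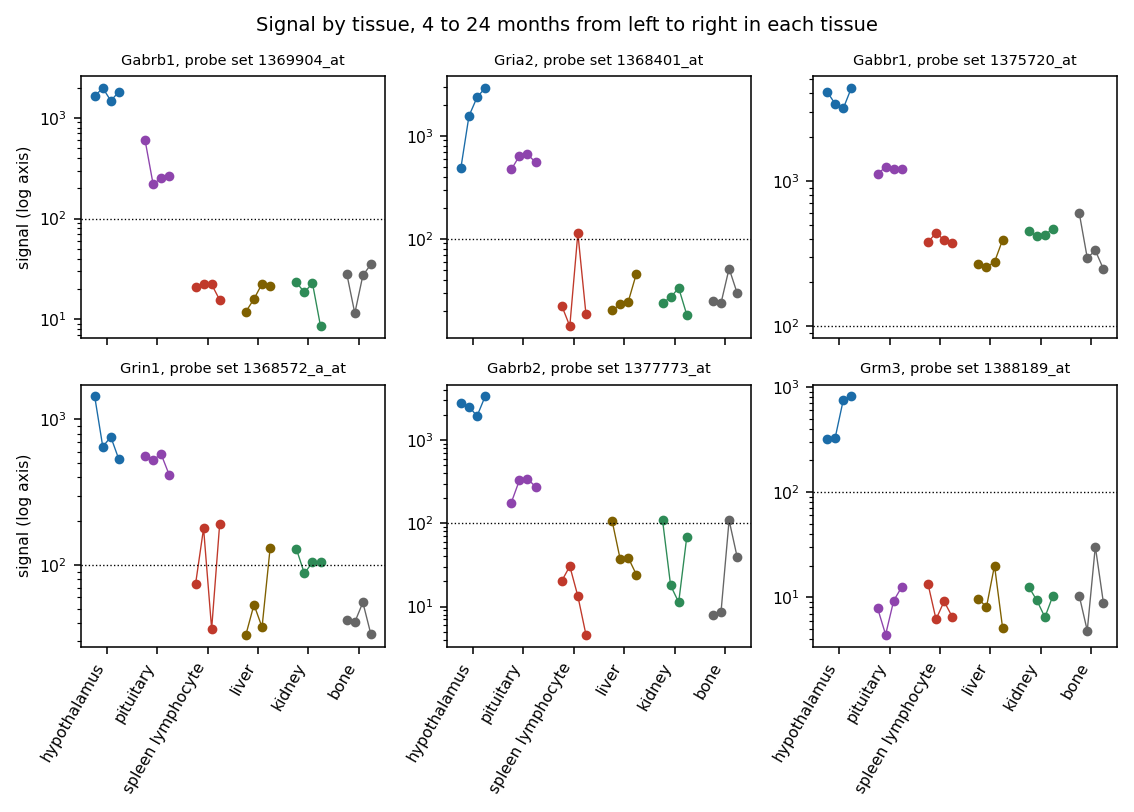
Points are the signals (log axis) of 6 probe sets on the 24 arrays, by tissue, with the ages 4, 10, 18 and 24 months from left to right and a dotted line at 100. Gabrb1, Gria2, Gabbr1, Grin1 and Gabrb2 form steps from hypothalamus or pituitary down to the other tissues, while Grm3 lies between 4.42 and 30.4 outside the hypothalamus.

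The 4 tissues outside the neuroendocrine axis were each compared with the mean of the other 3. In spleen lymphocyte, 4 member probe sets were higher and 1 was lower, below the 24.7% higher and 23.7% lower of all probe sets. Grm8 read 649, 1541, 1328 and 858 there, against 184 to 1129 in liver, kidney and bone (1.10 ± 0.35, SE, adjusted p = 0.0124), a call lost without the 10-month array. Grik1 read 107, 50.04, 70.6 and 118 and was higher by 0.90 (adjusted p = 0.000927), although only 2 of its lymphocyte values passed the floor. Gabra6, an alpha subunit best known from cerebellar granule cells, read 257, 136, 223 and 134 and was higher by 0.70 (adjusted p = 0.00997). The Gabbr1 probe set 1369372_at was also higher by 0.70 (adjusted p = 0.0124). These last 2 calls were lost without the 4-month array. Grin3a was lower (-0.68, adjusted p = 0.0403), and that call was lost without the 10- or 18-month lymphocyte array or the 18-month bone array.

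In liver, 6 member probe sets were higher and 3 lower, against 17.7% and 29.8% of all probe sets. Gabre was at 274, 296, 281 and 229, above all 12 arrays of the other 3 tissues (0.81 ± 0.23, SE, adjusted p = 0.0052). The weak Gabrb2 probe set 1369818_at was higher by 0.98 (adjusted p = 0.00225), at 98.3 to 216. Grm2 was lower, at 71.4 to 116 (-0.53, adjusted p = 0.00815). Among the others called, Grin3b and probe sets of Grm8, Grin1 and Gabrr1 were higher by 0.65 to 0.73, and Gabra4 and Grik1 were lower by -0.43 and -0.60. Of the liver calls, that of Gabrr1 was lost without the 4-, 18- or 24-month liver array, Gabra4 without the 4- or 18-month, Grik1 without the 4- or 24-month, Grin3b without the 10- or 18-month and Grin1 without the 4-month array. Without the 18-month bone array, the liver counts became 12 higher and 3 lower.

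In kidney, 2 members were higher and 3 lower, against 19.8% and 24.7% of all probe sets. Grik5 read 113, 87.0, 66.1 and 133 and was higher by 0.63 (adjusted p = 0.0259). Gabre was lower by -0.68 (adjusted p = 0.0182), on signals of 114, 114, 16 and 211, and the call was lost without the 18-month array, which held the lowest of them. Gabbr2 was higher by 0.42 (adjusted p = 0.0492), and Grin2a and Gabrb2 (1369818_at) were lower by -0.95 and -0.68 (adjusted p = 0.0466 and 0.029). The calls of Grik5, Gabbr2, Gabrb2 and Grin2a were each lost without the 10-month and also without the 24-month kidney array. Those of Gabbr2 and Gabrb2 were lost without the 4-month array too, and that of Grin2a without the 18-month array too. The Gabbr2 call was also lost without the 18-month bone array and with quantile normalization.

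In bone, 2 members were higher and 2 lower, against 23.6% and 16.9% of all probe sets. Grin2b read 104, 122, 85.7 and 77.9, the lowest mean of the 4 tissues (-0.74 ± 0.19, SE, adjusted p = 0.0028), though its 10-month value lay above the 112 of the 4-month liver. Gabrr1 was lower by -0.73 (adjusted p = 0.00738), a call lost without the 24-month array. Gabrd read 271, 237, 391 and 248 (0.52 ± 0.16, SE, adjusted p = 0.0135) and Grik3 15.3, 120.4, 220.0 and 208 (0.69 ± 0.27, SE, adjusted p = 0.0458). Both calls on the higher side were lost without the 18-month array, and Grik3 also without the 10- or 24-month array. The directions in bone depended on the scaling and on 1 array. Quantile normalization gave 1 higher and 9 lower, centring on the median 0 and 11, and leaving out the 18-month array 0 and 9. Centring moved the share of higher calls among all calls from 58.3% to 41.9% and the median of all probe sets from 0.06 to -0.10.

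The 18-month bone array, on which weak signals were raised, read highest of the 4 bone arrays for 43 of 56 member probe sets (76.8%), against 43.1% of all probe sets. Of the members, 11 were at 100 or more there and at least 2 times the highest of the other 3 bone arrays (19.6%, against 6.97% of all probe sets). Grm8 read 1129 on it, against 245, 248 and 184 at the other ages, and Grin2a read 588, against 28.3, 22.7 and 27.3. Among the others, Grin2d read 374, against 24.3, 60 and 111, and Grin3a read 218, against 65.7, 77.7 and 91.4. The second Grin2a probe set (1368985_at) read 158 on that array and 96.3, 122 and 109.9 on the other bone arrays. Summed neuron markers in bone were 1012, 970, 1864 and 1216 at 4, 10, 18 and 24 months, with 2, 3, 6 and 3 of 11 markers at 100 or more, and their part in these values was not tested.

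**Figure D4:**
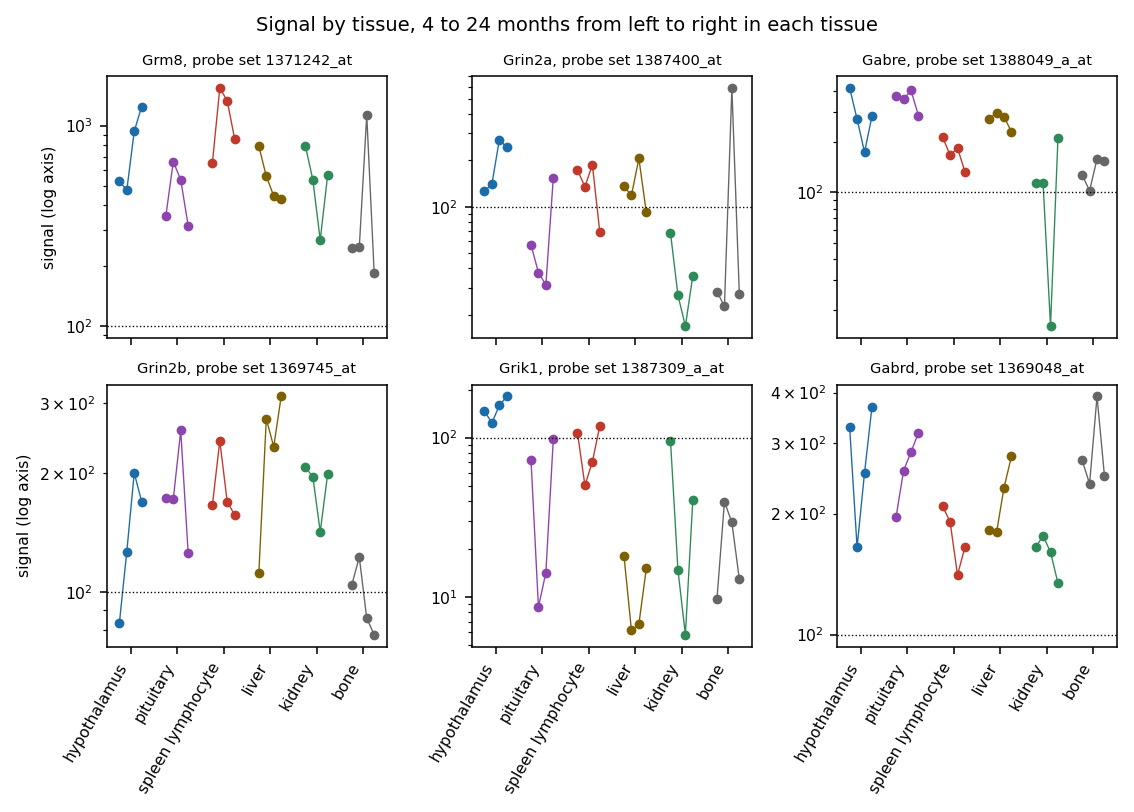
Points are the signals (log axis) of 6 probe sets on the 24 arrays, by tissue, with the ages 4, 10, 18 and 24 months from left to right and a dotted line at 100. Grm8 exceeds 100 in every tissue, with its bone values at 245, 248, 1129 and 184, and Gabre dips to 16 on 1 kidney array.

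Age differences common to the 6 tissues were not found among the members. Between 24 and 4 months, limma called 0 member probe sets higher and 0 lower, and 0 had an unadjusted p under 0.05. Of all probe sets 0.0189% were higher and 0.0% lower. The members' median difference was -0.01.

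In hypothalamus, the 18- and 24-month arrays were compared with the 4- and 10-month arrays, a comparison of 2 against 2 with the spread shared over the 6 tissues. Of the members, 4 probe sets rose and 0 fell, against 2.50% higher and 0.454% lower of all probe sets. The members' median difference was 0.19, against 0.04 for all probe sets.

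Grm3 went from 321 and 329.9 at 4 and 10 months to 751 and 811 at 18 and 24 months (1.15 ± 0.19, SE, adjusted p = 0.00148). Its early and late values lay apart, with little spread within each pair, and it kept its call under all 14 alternatives run. Among these, flooring the signals is no check. Outside the hypothalamus Grm3 read 4.42 to 30.4, so the floor gives all those arrays the same value. The shared SE also draws on those tissues, where the SD over the ages was only 0.06 to 0.24 (log2). The p-value thus rests in large part on spread where Grm3 was below the floor. Gabrg1, the gamma1 subunit of GABA-A receptors, went from 238 and 192 to 449.8 and 550.2 (1.05 ± 0.23, SE, adjusted p = 0.0121). That call was lost without the 10-month or without the 24-month hypothalamus array.

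The 2 AMPA subunits called gave different readings by their other probe sets. Gria3 rose by probe set 1368691_at from 2.81 and 5.68 to 105 and 108 (1.53 ± 0.25, SE, adjusted p = 0.00118), that is, from below the floor to just above it. With signals floored at 100 this difference shrank to 0.09 and was still called. The floor gives every other array the same value, so that call rests on the 18- and 24-month hypothalamus arrays alone and is no check. The other Gria3 probe set, with the higher signals, read 793 and 802 early and 413 and 603 late and was not called. Gria2 rose by probe set 1368401_at from 489 and 1555 to 2357 and 2906 (1.52 ± 0.40, SE, adjusted p = 0.0468), a call lost under 8 of 14 alternatives, among them leaving out the 4-, 18- or 24-month hypothalamus array or the 18-month bone array. Its other probe set, at 1176, 1461, 992 and 1592, was not called.

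The summed neuron and astrocyte markers of the early and late hypothalamus arrays overlapped. Summed neuron markers were 37366, 37456, 33885 and 41663 and summed astrocyte markers were 41682, 36387, 45005 and 42636 at 4, 10, 18 and 24 months. Other sums lay apart by this split. Pituitary endocrine markers were at 3644 and 4310 early and 5683 and 6291 late, lymphocyte markers were at 654 and 578 early and 698 and 914 late, and the hepatocyte sum was 2568 and 12721 early and 1189 and 1381 late. The beta-actin 3' to 5' ratio was also higher on the 4- and 10-month arrays. The part of these in the late rise was not tested. Of the 59 partner genes, 1 rose, Gad2, an enzyme of GABA synthesis (61.5 and 66.9 early, 552 and 376 late, 2.15 ± 0.48, SE, adjusted p = 0.0154), and 0 fell.

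In pituitary, the same late against early comparison called 0 members, with 1 at an unadjusted p under 0.05, and 0.0% of all probe sets in either direction. For the difference between the late changes of hypothalamus and pituitary, limma called 0 members, with 4 at an unadjusted p under 0.05, while 0.769% of all probe sets were higher and 0.0252% lower. Gria3 (1368691_at) came nearest, at 1.52 ± 0.35 (SE, adjusted p = 0.0539), and Grm3 had 1.03 ± 0.27 (SE, adjusted p = 0.109). Grm3 was at 4.42 to 12.5 in pituitary, below the floor. The late rise was thus not shown to differ between the 2 tissues.

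Changes of 2-fold or more between consecutive ages, where both arrays read 100 or more, were counted as a description, since 1 array per age allows no test. From 4 to 10 months in hypothalamus, 1 of 31 member probe sets was 2-fold higher and 6 were 2-fold lower, against 1.02% and 2.66% of all probe sets. From 10 to 18 months 4 of 32 were higher and 0 lower, against 4.24% and 1.65%. From 18 to 24 months 0 of 37 were higher or lower, against 2.58% and 1.92%.

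Gria2 (1368401_at) was the one higher at 10 than at 4 months, by 3.18-fold. Those lower at 10 months were Grin1 (1439 to 651, 2.21-fold), the NMDA subunit Grin2d (447 to 154, 2.9-fold), Grm4 (458 to 184, 2.49-fold), Grik5 (342 to 156, 2.19-fold) and Gabbr1 by 2 of its probe sets (756 to 223 and 317 to 119). The Gabbr1 probe sets with the highest signals did not follow, at 4104 and 3382 by one and 5627 and 4016 by the other. By 18 months both falling Gabbr1 probe sets were back at 573 and 331, whereas Grin1, Grin2d and Grm4 stayed at 759, 171 and 178. The median change of the members at 100 on both arrays from 4 to 10 months was -0.31 (log2 of the signal) and that of all probe sets 0.00. The 10-month array is the one with the high beta-actin 3' to 5' ratio and hepatocyte signal, whose part in these falls was not tested.

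**Figure D5:**
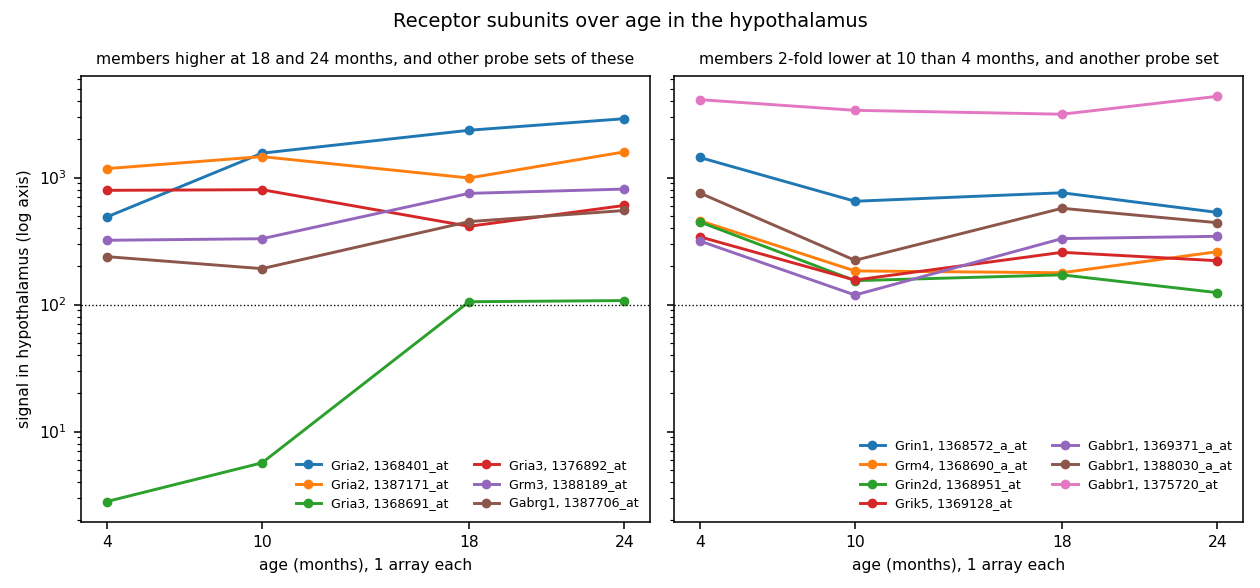
Lines join the hypothalamus signals (log axis) of single probe sets at 4, 10, 18 and 24 months, 1 array each, with a dotted line at 100. On the left, Grm3 and Gabrg1 step up between 10 and 18 months while Gria2 by 1387171_at and Gria3 by 1376892_at do not. On the right, 6 probe sets fall at 10 months and a Gabbr1 probe set with signals of 3152 to 4359 changes less.

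Over all 6 tissues and 3 steps of age, 383 steps of single member probe sets had both signals at 100 or more. Of these steps, 11 were 2-fold higher and 12 lower, against 2.21% and 2.04% of the same steps over all probe sets. A probe set can count in several steps. Grm8 accounted for 5 of these changes. It rose 2.38-fold in spleen lymphocyte from 4 to 10 months, fell 2.0-fold and rose 2.11-fold in kidney around 18 months, and rose 4.56-fold and fell 6.13-fold in bone around 18 months. In pituitary, Gabrb1 fell 2.74-fold from 598 at 4 months to 218 at 10 months and then read 255 and 264. In liver, Grin2b rose 2.45-fold from 4 to 10 months. Grin2d fell 3.37-fold in bone, from 374 on the 18-month array, where weak signals were raised, to 111 at 24 months. Each of these rests on 1 array per age.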

How the data were processed

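Affymetrix RAE230A arrays measured RNA pooled over 10 rats for each of 6 tissues and 4 ages. The authors summarised the probes with MAS5.0 into 1 linear intensity per probe set, and scaled each array to 500. These intensities were deposited. For the software, no version is given in the sources used. Medians of the arrays lay between 213 and 309, and the number of arrays limits the precision. Of 15923 probe sets, 57 controls were left out. By the platform annotation 12783 of the rest had 1 symbol, 312 several and 2771 none. No further normalization was applied.

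Tests used log2(signal + 50) with no filter on low values and limma 3.58.1 in R 4.3.3 (lmFit, eBayes), adjusted by Benjamini-Hochberg over 15866 probe sets at 0.05. Tissues were compared with tissue and age as factors (15 residual degrees of freedom), and late with early ages with a late term within each tissue (12). P-values measure the spread between pooled arrays. The members, gene lists and tests were chosen with earlier results of these data known. Genes named were those called (the 10 smallest adjusted p-values in each comparison), those changed 2-fold in hypothalamus and the largest 2-fold changes elsewhere, the extremes of each receptor class and 2 to 4 partner genes a list. Members named beyond these, and those given for the 18-month bone array, were picked with their values known. The fits were tested on simulated data in which the tissues shared 1 mean per probe set, unlike the real arrays. Changes were planted only in probe sets with a mean above the median of all. Recovery for weaker probe sets, many members among them, was not measured. Of 100 changes of 1 log2 unit, 89 were recovered for hypothalamus against the others and 91 for 24 against 4 months. Only 31 were recovered for late against early hypothalamus, so an absent call there says little about changes of this size. At 2 log2 units, 100, 100 and 95 were recovered. Alternatives were another pseudocount, a floor of 100, quantile normalization, median centring, no age term, trended robust variances, 1 probe set a gene, fewer arrays and other fold limits. Leaving out the 18-month bone array alone was chosen after seeing the data. Promoters came from the RefSeq table of GRCr8. Figures were drawn with matplotlib 3.10.9.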

Additional observations from a re-analysis of the deposited data

Results flagged for a closer look

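In 7 of 90 sets of 4 arrays tested (1 probe set in 1 tissue), 1 array lay apart from the other 3 by Dixon's ratio (gap over range), and chance flags about 1 in 20 sets. Gabbr1 (1369371_a_at) was low in 10-month hypothalamus, at 119 against 317 to 345 (ratio 0.914). Grm8 was high in 18-month bone, at 1129 against 184 to 248 (ratio 0.851). In 10-month spleen lymphocyte, Grin2c was high at 324 against 239 to 241 (ratio 0.980) and Grin2b at 241 against 156 to 169 (ratio 0.8291). Grin2b was low in 18-month kidney, at 142 against 196 to 206 (ratio 0.852). Gabrg1 was low in 10-month pituitary, at 163 against 229 to 239 (ratio 0.886), and in 4-month liver, at 166 against 230.4 to 238 (ratio 0.909).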

How the results depend on the processing

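All numbers are counts of called member probe sets. Flooring signals at 100 gave 3 in place of 5 in spleen lymphocyte, 5 in place of 9 in liver, 1 in place of 5 in kidney and 1 in place of 0 for the difference between hypothalamus and pituitary in late change. Quantile normalization gave 8 in spleen lymphocyte and 10 in place of 4 in bone, and median centring 11 in bone. Leaving out the 18-month bone array gave 15 in liver and 1 for the difference in late change. That difference also gave 1 with trended robust variances and 1 without the 4 bone arrays. With 1 probe set a gene, 2 in place of 4 rose late in hypothalamus. Leaving out in turn each array of the tissue compared (of both tissues where 2 were compared, and each whole tissue for 24 against 4 months) gave 23 to 26 for hypothalamus (29 with all), 17 to 19 for hypothalamus against pituitary (18), 12 to 13 for pituitary (14), 4 to 7 for spleen lymphocyte, 6 to 9 for liver, 2 to 4 for kidney (2 without the 24-month array), 2 to 9 for bone (9 without the 18-month and 2 without the 24-month array), 0 to 0 for 24 against 4 months, 2 to 3 for the late rise in hypothalamus (2 without the 24-month array), 0 to 0 for pituitary and 0 to 1 for the difference in late change (1 without 10-month hypothalamus). The lone array left in an early or late pair is assumed to vary like the other groups. In hypothalamus, the 11 changes of 2-fold became 5 at a floor of 200, 35 at 1.5-fold, 2 at 3-fold and 7 with 1 probe set a gene. Over 6 tissues, the 23 became 70 at a floor of 50, 11 at a floor of 200, 86 at 1.5-fold and 5 at 3-fold. Of 1287 values of called members under alternatives, 1167 kept their call and 120 lost it, 0 with a change of direction, and 51 of 88 calls were kept throughout. Arrays of 1 age came from the same rats, so age was the block in the tissue comparisons. With no replicate block the counts were 29 for hypothalamus, 20 for hypothalamus against pituitary, 14 for pituitary, 5 for spleen lymphocyte, 12 for liver, 4 for kidney and 4 for bone. Signals under 100 are near background and limit the weak probe sets, and signals over 100 do not by themselves show expression.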
